A study of Mus musculus with 18 samples.

Results

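The nuclear genes for subunits of the oxidative phosphorylation chain were followed in nascent RNA of mouse embryonic stem (mES) cells. Members were the protein-coding genes whose symbol begins with Ndufa, Ndufb, Ndufc, Ndufs, Ndufv, Uqcr, Atp5 or with Cox4 to Cox8, together with *Sdha*, *Sdhb*, *Sdhc* and *Sdhd*; the Ndufaf assembly factors were left out. This rule found 86 genes among the 54446 of the count tables, of which 36 belong to complex I, 4 to complex II, 8 to complex III, 20 to complex IV and 18 to complex V. *Ndufa4* and *Ndufa4l2* were placed in complex IV, where the *Ndufa4* protein is now known to sit. After a filter on low counts, 81 of the 86 were tested, among 19910 genes in all.

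Oxidative phosphorylation is carried out in the inner mitochondrial membrane. Complexes I and II pass electrons from NADH and succinate to ubiquinone, complex III passes them to cytochrome c, complex IV passes them to oxygen, and complex V, the ATP synthase, uses the proton gradient built by complexes I, III and IV. Most subunits are encoded in the nucleus and the core of every complex except complex II includes subunits of the mitochondrial genome, so the subunits of 1 enzyme come from genes on many chromosomes and from 2 genomes.

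The study asked how loss of TET2, an enzyme that oxidizes 5-methylcytosine, changes RNA synthesis. WT and *Tet2*-KO (*Tet2*-/-) mES cells, grown in serum with LIF and the inhibitors CHIR99021 and PD0325901 and passaged off feeder cells, were given 1 mM 5-ethynyl uridine (EU), a uridine analogue that enters new RNA, for 10, 20 or 40 min, with 3 replicates per genotype and time (6 groups, 18 libraries). EU-labelled RNA was biotinylated, pulled down and sequenced together with ERCC RNA, a synthetic spike-in added in proportion to the total RNA of each sample. The methods describe 1 WT and 1 *Tet2*-KO line and replicate dishes, so each genotype is represented by a single line and p-values measure the spread between dishes.

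Each library held between 17931614 and 23069143 reads on genes and between 44162 and 512186 on ERCC transcripts, and the members took 56557 to 90193 reads. The reads behaved as if counted over whole gene spans on 1 strand: of 452 protein-coding genes that lie inside another gene on the same strand, 451 were at 0 in every library. Reads on *Tet2* remained in the *Tet2*-KO libraries, where *Tet2* had 9730 to 13011 reads against 13117 to 17092 in WT, and an ERCC-scaled level, defined next, of 51.0 ± 2.76, 121 ± 7.97 and 254 ± 18.96 (SD, n = 3) against 27.8 ± 2.46, 102 ± 7.63 and 182 ± 7.41 in WT at 10, 20 and 40 min. Counts over the whole gene thus did not check this label. The ES cell markers *Pou5f1*, *Nanog* and 6 others were tested and *Sox2*, which lies inside *Sox2ot*, was at 0 by the way reads were counted. Primitive endoderm markers summed to an ERCC-scaled level of 0.441 to 1.65 in WT and 0.856 to 2.88 in *Tet2*-KO.

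Levels are given on 2 scales. The ERCC-scaled level is the number of reads per 1000 ERCC reads of the library and follows the amount of labelled RNA per total RNA. The library share, as CPM (reads scaled to a fixed library total) after TMM normalization, follows a gene's part of the labelled RNA. Because the 2 scales differ by the overall rise in labelled RNA, a gene can be higher on the first and lower on the second. In bulk samples fewer cells of a type and less RNA per cell cannot be told apart.

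Nascent RNA of the members was higher in *Tet2*-KO than in WT at every EU time on the ERCC scale. The level summed over the 86 genes was 185, 206 and 167 in the 3 WT libraries at 10 min and 324, 331 and 367 in the *Tet2*-KO libraries. At 20 min the sums were 513, 565 and 482 in WT and 651, 744 and 707 in *Tet2*-KO. At 40 min they were 839, 905 and 870.5 in WT and 1370, 1188 and 1251 in *Tet2*-KO. Thus the genotypes did not overlap at any EU time, and the mean ratio was 1.83 at 10 min, 1.35 at 20 min and 1.46 at 40 min.

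**Figure D1:**
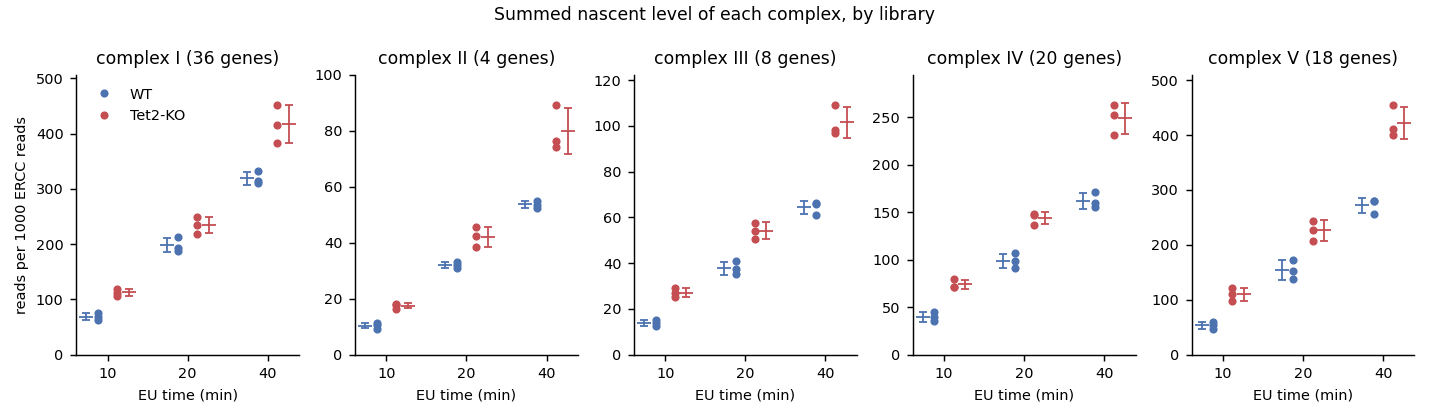
Summed ERCC-scaled nascent level of the members of each complex (vertical axis, reads per 1000 ERCC reads, each panel from 0) against EU time in min, with 1 point per library, blue for WT and red for *Tet2*-KO, and bars for mean ± SD of 3 libraries. In every panel and at every time the 3 *Tet2*-KO libraries lie above the 3 WT libraries.

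The rise was of unequal size between complexes. Complex I, the NADH dehydrogenase, had the smallest ratio of *Tet2*-KO to WT at each time. It was 1.65, 1.19 and 1.31 for 10, 20 and 40 min of EU. Without *Ndufs4*, left out after its values were seen, the ratios of complex I were 1.81, 1.33 and 1.46. These were close to those of all 86 genes (1.83, 1.35 and 1.46), and at 10 and 20 min above those of complex II with all its genes. Without *Sdhc*, also left out after its values were seen, complex II had 1.84, 1.43 and 1.58. These were above complex I without *Ndufs4* at each time. Complex V had ratios of 2.05, 1.47 and 1.55, complex III of 1.97, 1.43 and 1.58, and complex IV of 1.85, 1.46 and 1.53. Complex II, succinate dehydrogenase, had 1.69, 1.31 and 1.49.

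Gene by gene, the quasi-likelihood F test of edgeR (Benjamini-Hochberg adjustment) called 75 of the 81 tested members higher in *Tet2*-KO and 0 lower at 10 min, against 79.0% higher and 2.1% lower among all genes tested. At 20 min it called 62 higher and 2 lower (all genes, 53.7% and 4.86%), and at 40 min 71 higher and 1 lower (all genes, 68.2% and 2.84%). Averaged over the 3 EU times, 78 were higher and 2 lower, against 80.5% and 4.15% of all genes. The median log2 fold change of the members was 0.68, beside 0.70 over all genes tested. Their summed part of all gene reads was lower in *Tet2*-KO without overlap at 10 min (0.3896 to 0.405% in WT against 0.338 to 0.3697%) and at 40 min (0.345 to 0.364% against 0.315 to 0.325%), and overlapped at 20 min (0.344 to 0.3597% against 0.335 to 0.345%). For 51 of the 81 members every *Tet2*-KO library lay above every WT library at each of the 3 times, which was the case for 51.6% of all genes tested. Called higher at each of the 3 single times were 59 of the 81 members, against 50.8% of all genes tested.

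**Figure D2:**
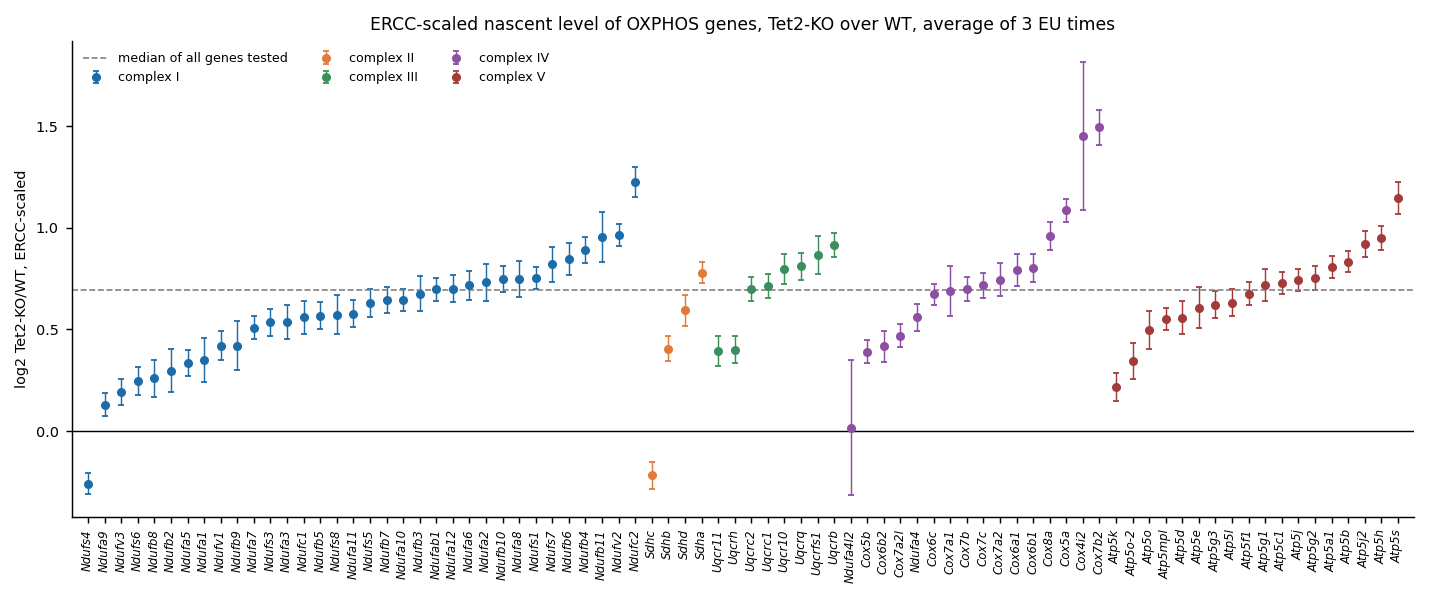
Log2 fold change of the ERCC-scaled level, *Tet2*-KO over WT, averaged over the 3 EU times, for the tested members reported singly (vertical axis), grouped by complex and sorted within it; points are the edgeR estimates and bars their standard errors, and the dashed line is the median of all 19910 genes tested, 0.70. *Ndufs4* and *Sdhc* lie below 0, *Cox7b2* is the highest point, and *Atp5o*-2 stands for the second gene of that symbol.

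By complex, 34 of 35 tested members of complex I were higher and 1 was lower on the ERCC-scaled average, with a median log2 fold change of 0.58. In complex II 3 were higher and 1 lower, with a median of 0.50. All 8 of complex III and all 18 of complex V were higher, with medians of 0.76 and 0.70. In complex IV 15 of 16 were higher and 1 was not called, with a median of 0.71.

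The members that did not follow the rise were *Ndufs4*, *Sdhc* and *Ndufa4l2*. *Ndufs4* encodes an accessory subunit of the matrix arm of complex I that is needed for its full assembly and is mutated in Leigh syndrome. Its ERCC-scaled level was 14.9, 16.2 and 13.2 in WT and 15.3, 14.998 and 16.6 in *Tet2*-KO at 10 min. At 20 min it was 43.7, 48.4 and 41.9 in WT against 29.3, 33.2 and 31.5 in *Tet2*-KO, and at 40 min 72.4, 77.4 and 71.9 against 65.6, 51.7 and 57.1. The groups overlapped at 10 min and lay apart, with *Tet2*-KO lower, at 20 and 40 min. Averaged over the times, the log2 fold change was -0.26 (SE 0.0509; edgeR quasi-likelihood test, Benjamini-Hochberg adjusted p = 9.11e-07).

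*Sdhc* encodes a membrane anchor of succinate dehydrogenase. At 10 min its level was 1.64, 1.96 and 1.74 in WT and 1.96, 1.46 and 1.76 in *Tet2*-KO, which overlap. The values were 5.23, 5.07 and 5.58 against 3.34, 4.04 and 3.98 at 20 min, where *Tet2*-KO was lower without overlap, and 6.93, 7.92 and 7.19 against 7.36, 6.03 and 6.83 at 40 min, where the groups overlap. The averaged log2 fold change was -0.22 (SE 0.0680; edgeR adjusted p = 0.00198). *Ndufa4l2*, a paralogue of *Ndufa4* known to be induced in hypoxia, had a mean of 7.72 reads per library and a log2 fold change of 0.02 (SE 0.331), so that a change was not detectable at this depth.

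Among the most strongly raised members on this scale was *Ndufc2*, an accessory subunit of the membrane arm of complex I. Its level was 0.683, 0.868 and 0.607 in WT and 1.79, 2.08 and 2.13 in *Tet2*-KO at 10 min, 1.897, 2.03 and 2.09 against 3.83, 4.91 and 3.798 at 20 min, and 3.06, 4.14 and 3.81 against 8.51, 8.05 and 7.56 at 40 min. Every *Tet2*-KO library was above every WT library at each time. The averaged log2 fold change was 1.22 (SE 0.0743; edgeR adjusted p = 6.11e-47).

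**Figure D3:**
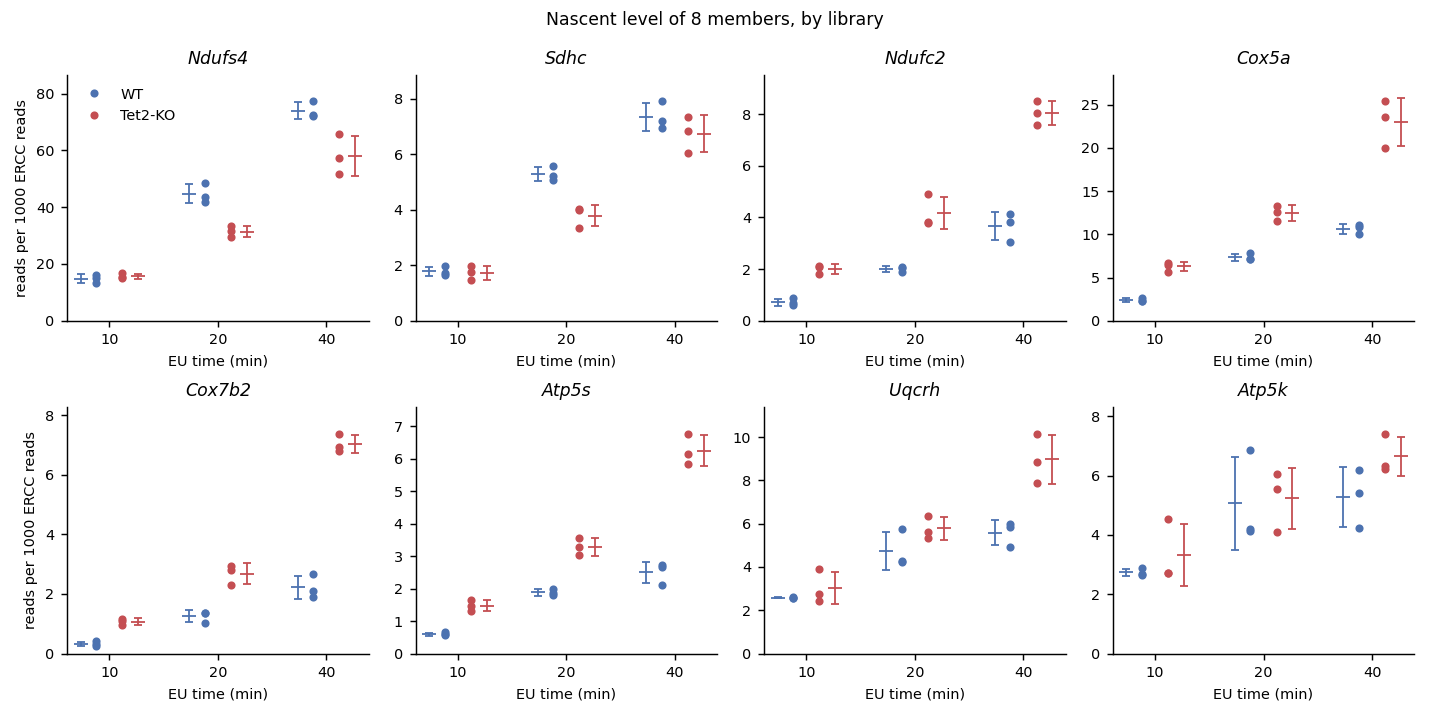
ERCC-scaled nascent level (vertical axis, reads per 1000 ERCC reads, from 0) against EU time in min for 8 members, with 1 point per library, blue for WT and red for *Tet2*-KO, and bars for mean ± SD of 3 libraries. *Ndufs4* is lower in *Tet2*-KO at 20 and 40 min, whereas *Ndufc2*, *Cox5a*, *Cox7b2* and *Atp5s* are higher at all 3 times, and *Uqcrh* and *Atp5k* rise less with EU time than the others.

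The 150 bases before the transcription start of *Ndufs4* and *Ndufc2*, the complex I members at either end of the comparison, are shown from the RefSeq annotation of GRCm38.p6. The first is at chr13:114388095-114388244 (minus strand) and the second at chr7:97399853-97400002 (plus strand). Neither stretch holds a match to the motifs of NRF1, ETS, YY1 or ERR factors described further on, so no base is in capitals.
Ndufs4: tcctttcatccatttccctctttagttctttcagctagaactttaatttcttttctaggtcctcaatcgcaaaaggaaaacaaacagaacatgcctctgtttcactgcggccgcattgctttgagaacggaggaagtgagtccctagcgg
Ndufc2: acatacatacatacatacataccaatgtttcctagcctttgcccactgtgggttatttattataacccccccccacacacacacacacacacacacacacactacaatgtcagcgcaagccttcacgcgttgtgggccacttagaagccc

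The library share showed which members rose less or more than labelled RNA in general. On this scale edgeR's test called 11 members higher and 24 lower in *Tet2*-KO at 10 min, against 22.5% and 21.4% of all genes tested. At 20 min 15 were higher and 12 lower (all genes, 20.3% and 18.2%), and at 40 min 4 were higher and 18 lower (all genes, 19.7% and 18.6%). Averaged over the times, 15 were higher and 26 lower, against 28.6% and 27.9% of all genes. The 11 higher at 10 min were 7 without *Tet2*-KO 10 min replicate 2 or WT 10 min replicate 3 and 17 without *Tet2*-KO 10 min replicate 1. The median log2 fold change of the members was -0.02, beside 0.00 for all genes.

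Complex I held most of the lower shares. On the averaged share, 14 of its 35 tested members were lower and 5 higher, with a median of -0.12, and at single times 13, 9 and 9 were lower against 4, 4 and 1 higher for 10, 20 and 40 min. Complex II had 2 lower and 1 higher, complex III 2 lower and 1 higher, complex IV 4 lower and 3 higher, and complex V 4 lower and 5 higher. The part of all gene reads that fell on complex I genes was 0.145 to 0.147% in WT and 0.117 to 0.119% in *Tet2*-KO at 10 min. It was 0.134 to 0.135% against 0.111 to 0.116% at 20 min, and 0.129 to 0.130% against 0.105% at 40 min. The genotypes were apart at each time, with *Tet2*-KO lower. Without *Ndufs4*, left out after its values were seen, complex I took 0.113 to 0.116% against 0.101 to 0.102%, 0.103 to 0.104% against 0.0966 to 0.1001%, and 0.0987 to 0.100007% against 0.0901 to 0.0906%, still without overlap.

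**Figure D4:**
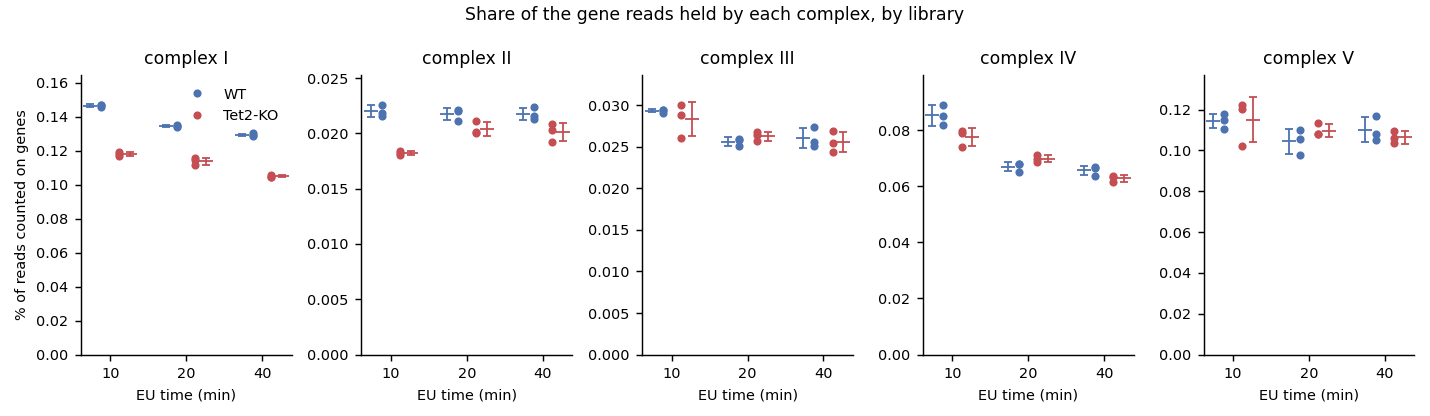
Percent of the reads counted on genes that fell on each complex (vertical axis, each panel from 0) against EU time in min, with 1 point per library, blue for WT and red for *Tet2*-KO, and bars for mean ± SD of 3 libraries. Complexes I and II are lower in *Tet2*-KO at each time, and complex IV is lower at 10 and 40 min and higher at 20 min. The genotypes overlap in complexes III and V.

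Of the other complexes, only complex II had the same single direction. Complex II was also lower in *Tet2*-KO at each time, with 0.0216 to 0.0226% against 0.0181 to 0.0184% at 10 min, 0.02114 to 0.0221% against 0.0200 to 0.02110% at 20 min, where the groups nearly touch, and 0.0213 to 0.0223% against 0.0193 to 0.0208% at 40 min. With *Sdhc* left out, again after its values were seen, *Tet2*-KO was still lower without overlap at 10 min (0.0175 to 0.0191% against 0.0163 to 0.0166%). The genotypes then overlapped at 20 min (0.0179 to 0.0184% against 0.0181 to 0.0192%) and at 40 min (0.0182 to 0.0193% against 0.0175 to 0.0191%). Complex IV took 0.0818 to 0.0891% in WT and 0.0738 to 0.0798% in *Tet2*-KO at 10 min, but 0.0650 to 0.0679% against 0.0685 to 0.0711% at 20 min. At 40 min it took 0.06375 to 0.0669% against 0.0614 to 0.06368%, where *Tet2*-KO was lower again and the groups nearly touch. Complexes III and V overlapped between genotypes at all 3 times.

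Within complex I, the members lower on the averaged share lie in both arms and include core and accessory subunits. *Ndufs4* had the largest fall: its share was 307, 307 and 295 CPM in WT and 159, 169 and 166 in *Tet2*-KO at 10 min. It was 296, 303 and 289 against 153, 155 and 149 CPM at 20 min and 305, 308 and 310.3 against 159, 146 and 149 CPM at 40 min. All 9 *Tet2*-KO libraries were close to each other and far below all 9 WT libraries. The averaged log2 fold change was -0.95 (SE 0.0179; edgeR adjusted p = 1.69e-30), the lowest among the tested members.

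*Ndufa9*, an accessory subunit where the matrix arm meets the membrane arm, followed with -0.56 (SE 0.0275; edgeR adjusted p = 1.32e-18). Its share was 99.1, 98.7 and 107 CPM in WT and 74.2, 63.7 and 68.4 in *Tet2*-KO at 10 min, 97.02, 96.3 and 95.6 against 63.3, 65.1 and 64.8 at 20 min and 94.9, 96.8 and 89.4 against 63.4, 63.3 and 64.9 at 40 min. The *Tet2*-KO libraries were below every WT library at each time. *Ndufv3*, an accessory subunit of the NADH-binding module, was at -0.50 (SE 0.0641; edgeR adjusted p = 3.18e-08), with 48.1, 39.03 and 47.7 CPM in WT against 33.999, 27.3 and 24.1 in *Tet2*-KO at 10 min. At 20 min *Ndufv3* was 33.004, 35.1 and 41.7 against 30.01, 23.2 and 27.3 and at 40 min 31.4, 28.3 and 26.2 against 21.2, 19.2 and 24.7, again without overlap.

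Members lower in share at all 3 single times numbered 8 of 81, against 10.9% of all genes tested, with 6 of them in complex I (among them *Ndufa9*, *Ndufs6*, *Ndufs4*, *Ndufa5* and *Ndufv3*) and 2 in complex II (*Sdhb* and *Sdhc*). *Ndufs6* and *Ndufa5*, accessory subunits of the matrix arm, had averaged log2 fold changes of -0.45 and -0.36. In contrast, the core subunit *Ndufs1* was slightly higher at 0.06 (SE 0.0258; edgeR adjusted p = 0.0462), and *Ndufv2*, a core subunit of the NADH-binding module, was higher at 0.27 (SE 0.0326; edgeR adjusted p = 1.02e-08). *Ndufv1*, the partner of *Ndufv2* that carries the flavin, moved the other way at -0.27 (SE 0.0502; edgeR adjusted p = 2.08e-05).

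The 4 genes of succinate dehydrogenase differed among themselves. *Sdhc* had 33.7, 37.1 and 38.9 CPM in WT and 20.5, 16.4 and 17.6 in *Tet2*-KO at 10 min, 35.4, 31.8 and 38.5 against 17.4, 18.8 and 18.9 at 20 min and 29.2, 31.5 and 31.03 against 17.8, 17.1 and 17.9 at 40 min. No *Tet2*-KO library reached a WT library, and the averaged log2 fold change was -0.91 (SE 0.0488; edgeR adjusted p = 1.58e-17). *Sdhb*, the iron-sulfur subunit, was lower at -0.29 (SE 0.0414; edgeR adjusted p = 3.61e-07), and *Sdhd*, the second membrane anchor, had -0.11 (SE 0.0601), which did not pass the test. *Sdha*, the flavoprotein subunit that oxidizes succinate, was higher at 0.08 (SE 0.0237; edgeR adjusted p = 0.00282).

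In complex III the hinge protein gene *Uqcrh* and the small subunit gene *Uqcr11* were lower in share, at -0.29 (SE 0.0748) and -0.30 (SE 0.0703), and *Uqcrb*, a ubiquinone-binding subunit, was higher at 0.23 (SE 0.0805; edgeR adjusted p = 0.0152, 0.0533 without *Tet2*-KO 10 min replicate 2 and 0.110 with DESeq2). The core genes *Uqcrc1* and *Uqcrc2* were at 0.02 and 0.01 with SE of 0.0328 and 0.0319, and the Rieske protein gene *Uqcrfs1* was at 0.17 (SE 0.0770); none of these 3 passed the test.

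In complex IV the largest rises in share that passed the test were in *Cox7b2* and *Cox5a*. *Cox7b2* is a paralogue of *Cox7b* best known from testis, and its share was 8.33, 5.92 and 5.68 CPM in WT against 9.85, 12.5 and 11.5 in *Tet2*-KO at 10 min. It was 6.86, 8.58 and 9.503 against 11.9, 13.7 and 13.3 CPM at 20 min and 8.04, 10.6 and 9.07 against 17.9, 19.2 and 18.1 CPM at 40 min. The genotypes were apart at each time, and the averaged log2 fold change was 0.80 (SE 0.0793; edgeR adjusted p = 1.30e-10), the highest of all tested members.

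*Cox5a*, a structural subunit on the matrix side of complex IV, had 47.4, 50.6 and 50.7 CPM in WT and 70.3, 64.2 and 64.7 in *Tet2*-KO at 10 min. Its shares were 48.01, 48.7 and 49.3 against 59.9, 61.8 and 59.7 at 20 min and 45.9, 43.95 and 43.1 against 61.7, 56.8 and 61.6 at 40 min. All *Tet2*-KO libraries were above all WT libraries, with an averaged log2 fold change of 0.39 (SE 0.0301; edgeR adjusted p = 2.95e-13). *Cox5b*, the zinc-binding subunit, was lower at -0.30 (SE 0.0423; edgeR adjusted p = 1.97e-07).

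In complex V the highest share change was in *Atp5s*, which encodes coupling factor B. *Atp5s* had 11.5, 12.3 and 13.1 CPM in WT and 17.2, 16.6 and 13.1 in *Tet2*-KO at 10 min, 12.1, 12.5 and 12.8 against 15.7, 15.2 and 16.9 at 20 min and 8.93, 10.8 and 11.4 against 16.4, 16.5 and 16.1 at 40 min. WT and *Tet2*-KO overlapped at 10 min, where the highest WT library exceeded the lowest *Tet2*-KO library, and were apart later. The averaged log2 fold change was 0.45 (SE 0.0622; edgeR adjusted p = 1.35e-07). The catalytic head genes *Atp5a1* and *Atp5b* were higher at 0.11 (SE 0.0364) and 0.14 (SE 0.0309), whereas *Atp5c1*, the rotor shaft gene, had 0.03 (SE 0.0248) and did not pass the test. *Atp5s*, *Cox5a*, *Cox7b2* and *Ndufc2* were the 4 of 81 members called higher in share at all 3 single times, against 12.3% of all genes tested.

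The alternative subunits differed in level. Per kb of exon, the mean ERCC-scaled level over the 18 libraries was 9.82 for *Cox7b* and 4.49 for *Cox7b2*, and 3.46 for *Ndufa4* against 0.0602 for *Ndufa4l2*. *Cox6b1* was at 5.55 and its testis-type paralogue *Cox6b2* at 2.57. Reads were counted over introns as well, which raises genes with long spans on this scale. *Cox7b2* spans 105 kb and *Cox7b* 6.75 kb, and per kb of span they were at 0.0231 and 1.77. *Cox6b1* spans 9291 bases and *Cox6b2* 1303, and per kb of span their order was reversed, with *Cox6b2* above *Cox6b1*.

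Of the ATP synthase c-ring genes, which encode the same mature protein, *Atp5g2* had the highest level per kb of exon at 6.13. It was followed by *Atp5g3* at 2.08 and *Atp5g1* at 0.537. These genes span 9489, 2880 and 6819 bases in that order. Per kb of span *Atp5g3* was the highest, ahead of *Atp5g2* and then *Atp5g1*. The averaged share changes of *Atp5g2*, *Atp5g3* and *Atp5g1* were 0.06 (SE 0.0327), -0.07 (SE 0.0494) and 0.03 (SE 0.0645), none of which passed the test. *Cox7a2l*, a factor of respiratory supercomplexes, was at 7.04 per kb of exon, *Cox7a2* at 2.29 and the muscle form *Cox7a1* at 1.37. In share, *Cox7a2l* was lower in *Tet2*-KO at -0.22 (SE 0.0297; edgeR adjusted p = 6.84e-08) and *Cox6b2* at -0.28 (SE 0.0598; edgeR adjusted p = 1.82e-04), while *Cox7a1*, *Cox7a2* and *Cox6b1* did not pass the test, at -0.01, 0.05 and 0.11. *Cox6b1* did pass with upper-quartile normalization and without any of 5 single libraries (WT 10 min replicate 2, WT 20 min replicate 3, *Tet2*-KO 10 min replicate 2, *Tet2*-KO 20 min replicate 3 and *Tet2*-KO 40 min replicate 1), at an edgeR adjusted p of 0.0332 to 0.0466.

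The highest levels per kb of exon in each complex were *Ndufs4* (14.7), *Ndufv2* (7.53) and *Ndufa9* (6.84) in complex I, and *Sdha* (6.09), *Sdhb* (2.97) and *Sdhd* (2.44) in complex II. In complex III they were *Uqcrb* (15.9), *Uqcr10* (5.59) and *Uqcr11* (5.24), in complex IV *Cox6c* (13.5), *Cox7b* (9.82) and *Cox8a* (8.85). In complex V they were *Atp5h* (20.7), *Atp5mpl* (19.4) and *Atp5c1* (12.9). Reads on introns raise long genes here too, such as *Ndufs4* with a span of 100464 bases against 22922 for *Ndufv2*. *Uqcr10*, *Cox6c*, *Cox7b* and *Atp5c1* did not pass the test of the averaged share, with log2 fold changes of 0.11, -0.02, 0.01 and 0.03, and *Cox8a* was higher at 0.27 (SE 0.0851; edgeR adjusted p = 0.00831; 0.0614 with DESeq2).

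The 5 members that failed the filter were all of complexes I and IV. *Cox6a2*, the muscle form of *Cox6a1*, had 0 reads in all libraries, and *Cox8b* and *Cox8c*, tissue-specific forms of *Cox8a*, had means of 1.56 and 0.56 reads per library. *Ndufa13* and *Cox4i1* also had 0 reads in all libraries, but they lie inside *Yjefn3* and *Gm20388* on the same strand, where the counting gave 0 to nearly every gene, so that 0 says nothing of their expression. *Cox4i2*, the lung-type form of *Cox4i1*, passed the filter with a mean of 9.89 reads and had an averaged share change of 0.77 (SE 0.383; edgeR adjusted p = 0.0865). Of the 86 members, 24 have a near-identical copy in another annotated gene. *Atp5l*, a small membrane subunit of the ATP synthase, had 556 reads per library against 4513 on its 11 copies, so its values are uncertain. Likewise 2 genes carry the symbol *Atp5o*, and the second (ENSMUSG00000116933) spans 243 kb across *Donson* and *Cryzl1*, so its reads may not be its own.

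With longer labelling, more RNA of every tested member was recovered. The summed level rose 4.69-fold from 10 to 40 min in WT and 3.73-fold in *Tet2*-KO. A line of level on EU time gave a summed rate of 22.1 ± 1.69 (SE, 9 libraries) reads per 1000 ERCC reads per min in WT and 30.6 ± 1.67 in *Tet2*-KO, a log2 ratio of 0.47 (SE 0.136). Gene by gene, the slope was steeper in *Tet2*-KO for 78 of the 81 members, against 89.5% of the protein-coding genes tested, with a median log2 ratio of 0.57, beside 0.62 for those genes. The members' median was 0.16 from 10 and 20 min alone and 0.80 from 20 and 40 min alone. By complex the medians were 0.56 for I, 0.54 for II, 0.59 for III, 0.59 for IV and 0.52 for V, which is a narrower range than that of the levels. Among single members the log2 ratio ran from -0.84 (SE 0.487) for *Ndufa4l2*, with a mean of only 7.7 reads per library, to 1.72 (SE 0.190) for *Cox7b2*. The other members below 0 were *Ndufs4* at -0.43 (SE 0.163) and *Sdhc* at -0.08 (SE 0.235).

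Relative to the library, the members' share fell with EU time more often than it rose. In WT, edgeR's test called 11 members higher and 28 lower at 40 than at 10 min, against 22.8% and 22.0% of all genes tested, and the median log2 change was -0.12, beside -0.03 over all genes. In *Tet2*-KO 7 were higher and 26 lower, against 20.1% and 16.8% of all genes, with medians of -0.11 and -0.01. Complex I, with 35 of the 81 tested members, held 14 of the 28 lower members in WT and 14 of the 26 in *Tet2*-KO. That is 40% of its members in each genotype, beside 37.5% of complex IV (6 of 16 in each). Without WT 40 min replicate 3 the 11 higher in WT were 7. Of the lower members, 18 were the same genes in both genotypes, 64.3% of those of WT and 69.2% of those of *Tet2*-KO, beside 54.8% and 69.0% for all tested protein-coding genes. The 6 that were higher in both were *Sdha*, *Atp5a1*, *Atp5b*, *Uqcrc1*, *Ndufs1* and *Cox7b2*, of which the first 5 encode large catalytic or core subunits. They are 54.5% of the 11 in WT and 85.7% of the 7 in *Tet2*-KO, beside 68.6% and 78.8% for protein-coding genes. Over the 81 members the changes in the 2 genotypes had a Spearman correlation of 0.53, beside 0.64 over 15158 tested protein-coding genes, a description over genes from the same 2 sets of libraries.

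**Figure D5:**
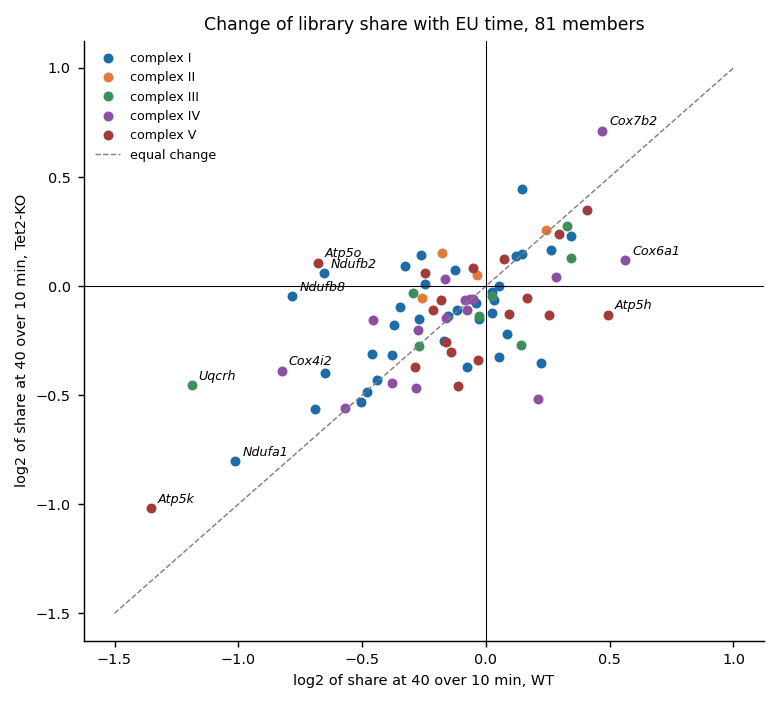
Log2 change of library share from 10 to 40 min of EU in WT (horizontal axis) against that in *Tet2*-KO (vertical axis), 1 point per tested member, coloured by complex, with a dashed line of equal change. *Atp5k*, *Uqcrh* and *Ndufa1* lie at the lower left, *Cox7b2* at the upper right, and *Uqcrh*, *Ndufb8*, *Ndufb2* and *Atp5o* lie above the line.

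The largest falls with time in WT were in *Atp5k*, which encodes the e subunit by which ATP synthase forms dimers, in *Uqcrh* and in *Ndufa1*, a small membrane-arm subunit of complex I. *Atp5k* had 54.6, 54.3 and 60.03 CPM at 10 min, 27.8, 26.3 and 47.4 at 20 min and 26.1, 21.5 and 18.2 at 40 min in WT, and 47.2, 30.5 and 27.3, then 31.6, 19.03 and 26.3, then 15.3, 17.6 and 19.4 in *Tet2*-KO. The 10 min and 40 min libraries did not overlap in either genotype. The log2 change was -1.35 (SE 0.171; edgeR adjusted p = 5.41e-08) in WT and -1.02 (SE 0.186; edgeR adjusted p = 3.86e-05) in *Tet2*-KO.

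*Uqcrh* had 52.3, 48.8 and 58.2 CPM at 10 min and 25.2, 23.2 and 21.3 at 40 min in WT, a log2 change of -1.19 (SE 0.126; edgeR adjusted p = 1.36e-09). In *Tet2*-KO it had 40.5, 27.6 and 27.5 and 21.5, 22.4 and 26.5, a change of -0.45 (SE 0.133; edgeR adjusted p = 0.00685). The high values stood in the 10 min libraries of WT and in 1 of the 3 of *Tet2*-KO. The log2 change of *Ndufa1* was -1.01 in WT, from 9.79, 8.08 and 9.69 to 5.42, 4.23 and 3.96 CPM, and its change in *Tet2*-KO was -0.80; both passed edgeR's test.

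The largest rises with time in WT were in *Cox6a1*, the widely used form of a regulatory subunit of complex IV, in *Atp5h*, the d subunit in the peripheral stalk of ATP synthase, and in *Cox7b2*. *Cox6a1* had 11.7, 13.7 and 10.8 CPM at 10 min and 15.7, 18.4 and 19.5 at 40 min in WT, without overlap, and 12.5, 15.03 and 16.1 against 15.03, 16.8 and 15.3 in *Tet2*-KO, with overlap. Its log2 change was 0.56 (SE 0.114; edgeR adjusted p = 1.20e-04) in WT and 0.12 (SE 0.117) in *Tet2*-KO, where it did not pass the test. *Cox7b2* rose in both genotypes, by 0.47 (SE 0.143) in WT and 0.71 (SE 0.131) in *Tet2*-KO; without WT 10 min replicate 2 or 3 or WT 40 min replicate 2 the edgeR adjusted p in WT was 0.0576, 0.0687 or 0.0696.

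*Atp5h* varied more between replicates than its counts explain. Its share was 119, 142 and 99.02 CPM in WT and 115, 232 and 216 in *Tet2*-KO at 10 min, and 141, 160.5 and 206 and 179, 182 and 150.3 at 40 min. The WT change was 0.49 (SE 0.172; edgeR adjusted p = 0.0190), and it was 0.35 without WT 10 min replicate 3 (edgeR adjusted p = 0.140) and 0.33 without WT 40 min replicate 3 (edgeR adjusted p = 0.167). Its SD between replicates on the log2 scale was 13.4 times that of counting alone, beside a median of 1.69 over the members and 1.58 over 10380 protein-coding genes with at least 100 reads. Further members above 4 times were *Uqcrb* (7.25), *Atp5k* (5.79), *Atp5j* (5.70), *Ndufb4* (4.54), *Cox6c* (4.41) and *Cox8a* (4.39). In all, 7 members were above 4 times, against 1.18% of those protein-coding genes. The SD of counting falls with read depth, and the members and protein-coding genes were not matched for depth. *Cox6c*, with a mean of 5620 reads per library, had an SD between replicates of only 0.0849. In 16 or more of the 18 libraries *Uqcrb*, *Atp5j*, *Cox8a*, *Ndufb4*, *Atp5b*, *Uqcrq* and *Atp5j2* deviated from their group mean to the same side as *Atp5h*. *Atp5k*, *Uqcrh*, *Cox5b*, *Ndufv3*, *Ndufs6*, *Ndufa5* and *Uqcrc2* deviated to the other side in 16 or more. No share of all tested genes is given beside these 2 lists, so they are not shown to be particular to the members. Across tested protein-coding genes, the correlation of a library's deviations with log2 gene span ran from -0.0769 to 0.0587, and its sign was opposite to the deviation of *Atp5h* in 15 of the 18 libraries. The part of this shared deviation in the time and genotype results of these and the other members was not tested.

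The 4 promoters that follow are those of the members with the largest changes in time that hold a motif match within 150 bases before the start, again from RefSeq on GRCm38.p6. Capitals mark the match: 2 overlapping NRF1 matches on opposite strands in *Atp5k* at chr5:108434400-108434549 (minus strand), and 1 ETS match each in *Uqcrh* at chr4:116075071-116075220 (minus strand), *Cox6a1* at chr5:115348959-115349108 (minus strand) and *Atp5h* at chr11:115419920-115420069 (minus strand).
Atp5k: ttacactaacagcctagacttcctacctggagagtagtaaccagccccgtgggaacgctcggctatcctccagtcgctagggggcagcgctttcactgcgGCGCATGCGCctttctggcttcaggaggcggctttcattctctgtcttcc
Uqcrh: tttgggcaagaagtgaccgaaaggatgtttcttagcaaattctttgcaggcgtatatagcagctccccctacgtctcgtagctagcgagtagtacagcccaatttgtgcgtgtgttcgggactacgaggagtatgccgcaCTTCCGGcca
Cox6a1: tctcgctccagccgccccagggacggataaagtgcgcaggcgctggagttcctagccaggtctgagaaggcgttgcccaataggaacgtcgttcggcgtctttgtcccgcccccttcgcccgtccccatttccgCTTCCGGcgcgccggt
Atp5h: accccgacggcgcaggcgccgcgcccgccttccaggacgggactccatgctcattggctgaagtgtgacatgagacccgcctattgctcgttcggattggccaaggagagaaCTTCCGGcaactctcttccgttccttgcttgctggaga

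RefSeq promoter windows of 300 bases (250 before the start and 50 after it) were found for 67 members, 72 windows in all, and were set beside 14926 windows of tested protein-coding genes and 32851 windows of all genes. The NRF1 motif GCGCATGC, counted on both strands like the others, was in 13.9% of member windows, 4.66% of those of tested protein-coding genes and 2.71% of all. The ETS motif CCGGAAG, as bound by GABPA, was in 22.2%, 15.1% and 8.86%, and the YY1 motif AAGATGG in 13.9%, 6.40% and 6.34%. The ERR motif AAGGTCA was in 11.1%, 3.46% and 4.72%. At least 1 of the 4 was in 47.2% of member windows, 26.6% of protein-coding and 20.7% of all windows, and no member window had 2 different motifs that overlap. GC content did not set the members apart, with a median of 57.3% beside 60.0% for protein-coding windows. Members with an NRF1 match were *Atp5g2*, *Atp5k*, *Atp5l*, *Cox6a1*, *Ndufa11*, *Ndufa6*, *Ndufa8*, *Sdhb*, *Uqcr11* and *Uqcrc1*; in share they ran from -0.48 for *Atp5k* to 0.10 for *Cox6a1*. Members without an entry include *Ndufa2*, *Ndufb9*, *Ndufs1*, *Sdhc*, *Uqcrb*, *Uqcrc2*, *Uqcrq*, *Cox4i1*, *Cox4i2*, *Cox6a2*, *Cox6c*, *Cox8c*, *Ndufa4l2*, *Atp5a1*, *Atp5f1*, *Atp5mpl*, the second *Atp5o* and *Atp5s*.

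The ratio of *Tet2*-KO to WT fell with EU time for many members on the ERCC scale. The change of the log2 ratio from 10 to 40 min, an interaction term of the fit, was called lower for 22 members and higher for 1, against 19.3% and 0.552% of all genes tested, and its median was -0.29 both over the members and over all genes. Complex V held 10 of the 22, complex I 7, complex IV 3 and complex III 2. Leaving out 1 library moved the 22 to 10 (without *Tet2*-KO 40 min replicate 2), 11 (*Tet2*-KO 10 min replicate 3), 12 (WT 10 min replicate 3), 14 (WT 40 min replicate 2 or *Tet2*-KO 40 min replicate 3) or 34 (WT 10 min replicate 2). The 1 higher member, *Uqcrh*, was lost without any of 7 libraries, namely WT 10 min replicates 1 and 3, WT 40 min replicates 2 and 3, *Tet2*-KO 10 min replicates 2 and 3 and *Tet2*-KO 40 min replicate 3.

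On the library share 6 members were called higher and 4 lower, against 3.89% and 6.13% of all genes. The 4 lower became 9 without *Tet2*-KO 10 min replicate 1, 1 without *Tet2*-KO 10 min replicate 3, and 2 without WT 10 min replicate 3, WT 40 min replicate 2 or 3, or *Tet2*-KO 40 min replicate 3. The higher members were *Uqcrh*, *Ndufb8*, *Ndufb2*, *Ndufa7*, *Cox7a2l* and *Atp5o*. Of these, *Ndufb8*, *Ndufb2* and *Atp5o* share part of their span with a gene on the same strand, so their counts may be incomplete. The shared parts are 4260 of 6869, 4022 of 10809 and 1769 of 6474 bases. Leaving out such members, an alternative chosen after seeing the data, left 3 with a rising ratio. The call of *Ndufa7* was lost without any of 9 single libraries (WT 10 min replicates 1 and 3, the 3 WT 40 min replicates, and replicates 2 and 3 of *Tet2*-KO at 10 and 40 min; edgeR adjusted p up to 0.111). That of *Ndufb2* was lost with no filter and without any of 7 (WT 10 min replicate 3, the 3 WT 40 min replicates, *Tet2*-KO 10 min replicate 2 and *Tet2*-KO 40 min replicates 1 and 2; edgeR adjusted p up to 0.114). For all 6, the share in *Tet2*-KO was below WT at 10 min and nearer to it, or above it, at 40 min.

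*Ndufb8*, an accessory subunit of the membrane arm, is an example. Its share was 16.3, 13.1 and 17.6 CPM in WT and 9.67, 7.46 and 6.71 in *Tet2*-KO at 10 min, apart from each other, and 9.15, 8.76 and 9.42 and 6.86, 7.74 and 8.67 at 40 min, again with *Tet2*-KO lower but by less. The log2 ratio changed by 0.74 (SE 0.207; edgeR adjusted p = 0.0179), and without replicate 3 of *Tet2*-KO at 10 or at 40 min the edgeR adjusted p was 0.0637 or 0.0685. *Atp5o*, a peripheral stalk subunit that confers sensitivity to oligomycin, changed by 0.79 (SE 0.195; edgeR adjusted p = 0.00661), from 13.3, 9.81 and 12.2 against 7.44, 7.12 and 7.98 CPM at 10 min to 7.24, 7.05 and 7.77 against 7.35, 9.59 and 7.28 at 40 min. In the other direction *Ndufb10*, also of the membrane arm, changed by -0.58 (SE 0.0966; edgeR adjusted p = 8.93e-05) and *Ndufv2* by -0.30 (SE 0.0797; edgeR adjusted p = 0.0110; 0.0616 without *Tet2*-KO 10 min replicate 3).

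As genes, the tested members are short: the median span was 7.67 kb beside 26.7 kb for tested protein-coding genes, with 1.59 against 4.32 kb of exon and 4 against 10 exon blocks. The median count was 534 against 318 reads per library. Among the members neither span nor exon length followed the averaged share change (Spearman correlations over 81 genes of -0.01 and -0.09, as a description).

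Partner genes of the chain were read from lists with the same fit. To set beside these lists and the regulators below, 80.5% of all genes tested were higher and 4.15% lower on the ERCC-scaled average. In averaged share 28.6% of all genes were higher and 27.9% lower. All 13 protein-coding genes of the mitochondrial genome were tested, and 12 were higher on the ERCC-scaled average with 0 lower, at a median of 0.57; in share 0 were higher and 7 lower, at a median of -0.13. The largest of these by reads, *mt-Nd5*, had an ERCC-scaled log2 fold change of 0.59 (SE 0.0469) and a share change of -0.10 (SE 0.0124). Of 48 assembly factors 45 were tested, and 43 were higher and 0 lower on the ERCC scale (median 0.69), with 7 higher and 16 lower in share (median 0.00). *Cyc1*, *Cycs*, *Atpif1* and *Usmg5*, subunits, carriers and regulators outside the symbol rule, were all higher on the ERCC scale (median 0.63) and none was called in share (median -0.06).

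Of 19 regulators of mitochondrial gene expression 18 were tested, and 17 were higher and 0 lower on the ERCC scale (median 0.73), with 7 higher and 4 lower in share (median 0.04). *Nrf1*, whose product binds many promoters of respiratory genes, was higher in share at 0.21 (SE 0.0145; edgeR adjusted p = 1.02e-14), and its partner coactivator gene *Pprc1* at 0.25 (SE 0.0231). *Gabpa* was at 0.01 (SE 0.0185). *Esrra*, a nuclear receptor of the same program, was the regulator not called on the ERCC scale, at -0.01 (SE 0.0808; edgeR adjusted p = 0.901), and was lower in share at -0.70 (SE 0.0668; edgeR adjusted p = 4.64e-11).

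Cell-type markers were read with the same fit. On the ERCC-scaled average 6 of 8 tested ES cell markers were higher and 1 lower (median 0.65), against 80.5% and 4.15% of all genes tested. The lower one was *Zfp42* at -1.52 (SE 0.0517). Of 6 tested feeder fibroblast markers of 10 listed, 4 were higher and 1 lower (median 0.77), of 3 for primitive endoderm all were higher (median 0.49), of 4 for 2-cell-like cells all were lower (median -2.15), and of 4 for muscle or heart 3 were higher and 1 lower (median 0.58). In averaged share 3 ES cell markers were higher and 4 lower (median -0.05), against 28.6% and 27.9% of all genes tested. For fibroblasts 2 were higher and 2 lower in share, and for primitive endoderm 0 and 1. For 2-cell-like cells these counts were 0 and 4, and for muscle or heart 1 and 1. No listed marker of a cell type other than ES cells was at 0 in all libraries. *Lum*, *S100a4*, *Dcn*, *Thy1* and *Postn* of the fibroblast list, however, had means below 10 reads per library. The fibroblast markers, most of whose reads are on *Fn1*, summed to an ERCC-scaled level of 45.3 to 56.1, 144 to 167 and 260 to 279 in WT at 10, 20 and 40 min, and to 84.1 to 98.6, 168 to 192 and 313 to 379 in *Tet2*-KO. The 2-cell-like markers summed to 1.09 to 1.14, 2.66 to 3.33 and 3.58 to 4.09 in WT and to 0.324 to 0.338, 0.487 to 0.684 and 0.742 to 0.973 in *Tet2*-KO. The ES cell markers summed to 127 to 151, 435 to 483 and 710 to 768 in WT and 195 to 218, 436 to 485 and 800 to 962 in *Tet2*-KO. As a part of all gene reads they took 0.294 to 0.297%, 0.306 to 0.310% and 0.295 to 0.297% in WT. In *Tet2*-KO that part was lower without overlap, at 0.217 to 0.219%, 0.225 to 0.229% and 0.219 to 0.224%. The muscle and heart markers stayed between 0.697 and 4.41 in WT and 1.16 and 6.34 in *Tet2*-KO. The part of these marker differences in the members' results was not tested.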

How the data were processed

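EU-labelled RNA of mouse ES cells, WT or *Tet2*-KO, was captured and sequenced after 10, 20 and 40 min of EU, with 3 libraries in each of 6 groups taken from the labels. Per the labels and the study's methods, the authors trimmed reads with Trimmomatic 0.39, aligned them with HISAT2 2.2.1 to mm10, GENCODE M19 and ERCC sequences, and deposited raw read counts per gene from HTSeq 0.12.4, with replicates kept apart. The feature type, strand setting and overlap mode of HTSeq are not given in the sources used here; counting over whole gene spans on 1 strand was read from genes inside other genes, of which 451 of 452 on the same strand were at 0 against 92 of 811 on the opposite strand. Reads that fell on no gene were 13.2 to 16.9% of each library, ambiguous reads 2.32 to 2.50% and reads aligned to several places 5.24 to 5.99%, and these stayed out of every total. Symbols and positions came from GENCODE M21 on the same build, which holds 54409 of the 54446 gene identifiers.

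Genes were kept by edgeR's filterByExpr with a minimum count of 10, which left 19910. All 18 libraries entered 1 fit with a mean per genotype and EU time, tested with the quasi-likelihood F test of edgeR (Benjamini-Hochberg adjustment over all genes tested, threshold 0.05). Library sizes were the ERCC read totals for the ERCC-scaled level and TMM-normalized gene totals for the share. Contrasts were *Tet2*-KO against WT at each time, their average, their change from 10 to 40 min, and 40 against 10 min within a genotype. Standard errors (SE) were obtained by dividing each log2 fold change by its root F statistic. Rates are least-squares slopes of level on EU time with an intercept; they are relative, since no spike-in concentration entered. The averaged ERCC-scaled contrast was tested on simulated counts for 19910 genes, where 200 of 200 genes changed by 2- or 3-fold were recovered and 15 unchanged genes were called. The changed genes were drawn from well-counted genes, with the same spread for every gene and no overall rise. The simulation thus does not check calls of smaller changes or of genes that vary more between replicates. The software was edgeR 4.0.16 and DESeq2 1.42.0, with limma 3.58.1, in R 4.3.3.

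Named genes were, in each complex, the 3 with the highest level per kb of exon; the 5 highest and 5 lowest averaged share changes; the 3 highest and 3 lowest changes of share from 10 to 40 min in WT; members not called or lower on the ERCC-scaled average; members failing the filter; paralogue groups; and the Sdh genes. Others were named after their values were seen, and 1 member is counted but not reported singly here. The members, the lists (mitochondrially encoded subunits, subunits outside the rule, assembly factors, regulators and cell type markers) and the tests were chosen with earlier results of these data known. Alternatives were other scalings, filters, DESeq2, a replicate block, members left out for overlaps or copies, and each library left out in turn. Same-numbered libraries did not deviate together (correlations of deviations from -0.111 to 0.106 over 45 pairs), so replicate numbers were taken as names only. The sources used here name no molecular identifiers, so counts are of reads and not of molecules.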

Additional observations from a re-analysis of the deposited data

Results flagged for a closer look

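The ratio of *Tet2*-KO to WT differed between 10 and 40 min of EU, by a test of the interaction term, for 23 members on the ERCC-scaled level and 10 members on the library share. Each value is the change of the log2 ratio from 10 to 40 min. On the ERCC-scaled level it was, in complex I, -0.41 for *Ndufa10*, -0.86 for *Ndufb10*, -0.58 for *Ndufb4*, -0.40 for *Ndufs1*, -0.43 for *Ndufs4*, -0.66 for *Ndufs5* and -0.59 for *Ndufv2*. In complex III it was -0.70 for *Uqcrb*, 0.44 for *Uqcrh* and -0.51 for *Uqcrq*, and in complex IV -0.74 for *Cox6a1*, -0.35 for *Cox6c* and -0.52 for *Cox8a*. In complex V it was -0.35 for *Atp5a1*, -0.34 for *Atp5b*, -0.52 for *Atp5d*, -0.64 for *Atp5e*, -0.37 for *Atp5g2* and -0.52 for *Atp5g3*. The remaining ATP synthase genes were *Atp5h* at -0.90, *Atp5j* at -0.59, *Atp5l* at -0.68 and *Atp5mpl* at -0.45. *Uqcrh* was thus the 1 member of the 23 whose ratio rose.

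On the library share the change was 0.25 for *Ndufa7*, 0.71 for *Ndufb2*, 0.74 for *Ndufb8*, 0.73 for *Uqcrh*, 0.30 for *Cox7a2l* and 0.79 for *Atp5o*. It was -0.58 for *Ndufb10*, -0.14 for *Ndufs4*, -0.30 for *Ndufv2* and -0.39 for *Atp5l*. *Ndufb10*, *Ndufs4*, *Ndufv2*, *Atp5l* and *Uqcrh* were called on both scales and in the same direction on both. Of these, *Ndufs4* on the share had an edgeR adjusted p of 0.119 without *Tet2*-KO 40 min replicate 2 and was also lost without 6 other single libraries and with TMM on protein-coding genes, and *Atp5l* on the share was lost without any of 6 single libraries (WT 10 min replicates 1 and 3, WT 40 min replicates 2 and 3, and replicate 3 of *Tet2*-KO at 10 and at 40 min; edgeR adjusted p of 0.0526 to 0.118). The reads of *Atp5l* can be split with its copies.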

How the results depend on the processing

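On the ERCC scale the counts of members called depend on the scaling by construction, since TMM and DESeq2's size factors take out the overall rise. Higher and lower members were 11 and 24 at 10 min with TMM and 8 and 24 with DESeq2's size factors, 15 and 12 against 14 and 12 at 20 min, and 4 and 18 against 4 and 17 at 40 min. For the average they were 15 and 26 against 9 and 26, and for the change from 10 to 40 min 6 and 4 with both. The median averaged change over all genes tested was 0.70 on the ERCC scale and 0.00 with TMM, and the sign turned with TMM for 41 of the 81 members. These had ERCC-scaled changes of up to 0.69, and the 38 that stayed above 0 had at least 0.70. Of the 36 members followed singly the sign turned for 16, at a log2 fold change with TMM and with DESeq2's size factors of -0.11 and -0.11 for *Sdhd*, -0.56 and -0.57 for *Ndufa9*, -0.29 and -0.29 for *Sdhb*, -0.0164 and -0.0213 for *Cox6c*, -0.34 and -0.35 for *Ndufa1*, -0.0746 and -0.0794 for *Atp5g3*, -0.30 and -0.30 for *Uqcr11*, -0.14 and -0.14 for *Atp5mpl*, -0.50 and -0.51 for *Ndufv3*, -0.22 and -0.23 for *Cox7a2l*, -0.13 and -0.14 for *Ndufa4*, -0.65 and -0.66 for *Ndufa4l2*, -0.48 and -0.48 for *Atp5k*, -0.28 and -0.28 for *Cox6b2*, -0.29 and -0.30 for *Uqcrh* and -0.00595 and -0.0105 for *Cox7a1*.

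With DESeq2 on ERCC totals, or with no filter, 0 members had a rising ratio on the ERCC scale. Leaving out members whose exons overlap another gene left 53 tested members, with the same fit, so counts fall as fewer members are counted. Of the 53, 51 were higher on the ERCC-scaled average and 14 had a falling ratio. On the share 11 were lower at 40 min, 16 were lower on average and 3 had a rising ratio. The count with a rising ratio in share was also 3 of the 57 members without a copy. It was 3 of the 70 that overlap no gene on the same strand, an alternative chosen after seeing the data. With no filter 11 members had a falling ratio in share, and with DESeq2 9 were higher in averaged share. Of the 57 members without a copy 17 were lower at 40 than at 10 min in each genotype. The median log2 ratio of rates was 0.16 from 10 and 20 min alone and 0.80 from 20 and 40 min alone, and 0.49 to 0.64 with 1 library left out.

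Among small averaged share changes the sign turned for *Cox7b* (-0.00997 with no filter, from -0.0194 to 0.0391 with 1 library left out) and *Cox7a1* (0.0032 with upper-quartile normalization, from -0.0558 to 0.0581), and with 1 library left out for *Atp5g1* (from -0.00908 to 0.0532) and *Cox6c* (from -0.0416 to 0.00793). On the ERCC scale *Ndufa4l2* ran from -0.16 to 0.27 with 1 library left out. With each library left out in turn, higher members on the ERCC scale ranged from 70 to 75, 53 to 63, 65 to 73 and 75 to 78 (10, 20, 40 min, average), lower ones were 0, 2, 1 and 2, and the change gave 0 to 1 higher and 10 to 34 lower. On the share, higher members ranged over 7 to 17, 12 to 17 and 4 to 5 (10, 20, 40 min) and lower members over 20 to 26, 9 to 14 and 13 to 20. For the averaged share these ranges were 12 to 20 and 24 to 31, for its change with time 4 to 6 and 1 to 9, for 40 against 10 min in WT 7 to 12 and 23 to 29, and in *Tet2*-KO 7 to 8 and 21 to 29. Counts that 1 library moved by over 1.5 times are given above with the library named.

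With the replicate number as a block, higher and lower members on the ERCC scale were 73 and 0, 61 and 2, 71 and 1 and 78 and 2, with 1 and 17 for the change, and 15 and 27 for the averaged share; the block moved no count of calls by over 1.5 times. The numbers did not pair the libraries, since correlations of same-numbered deviations ran from -0.111 to 0.106. Over 88 single-gene results and 2341 alternatives, 2196 kept direction and side of the threshold, 78 lost the call, 12 gained it and 55 turned. Depth limits *Ndufa4l2* and *Cox4i2*, with means under 10 reads per library.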

Other observations

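The genes around the members with the largest share changes were looked at after those changes were seen. *Ndufs4* (chr13:114287795-114388258, minus strand, mm10, the whole annotated gene) has 7 tested protein-coding genes within 1 Mb, of which 5 were lower in averaged share and 0 higher by edgeR's test, with a median log2 fold change of -0.72. They include *Snx18* at -1.42, *Fst* at -0.98, *Arl15* at -0.72 and *Mocs2* at -0.57. *Sdhc* (chr1:171127165-171150603, minus strand) has 38 such neighbours, of which 27 were lower and 3 higher, with a median of -0.34. Among all genes tested 27.9% were lower and 28.6% higher. Around *Ndufc2* (chr7:97400003-97407802, plus strand) 9 of 19 neighbours were higher and 4 lower, with a median of 0.20. Around *Cox7b2* (chr5:71442824-71548205, minus strand) 1 of 7 was higher and 2 lower, with a median of -0.08.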
